A study of Mus musculus with 6 samples.

Results

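The Janus kinases (JAKs), the STAT transcription factors they phosphorylate and the SOCS proteins that switch the pathway off were followed in mouse bone marrow-derived macrophages with and without Cd74. The 10 genes were taken by symbol from the deposited expression table: the kinases Jak1, Jak2, Jak3 and Tyk2, the factors Stat3, Stat5a and Stat6, and the inhibitors Socs1, Socs3 and Cish. Each of the 10 had a row among the 17217 rows of the table, and all 10 passed the filter for testing, a mean of 1 TPM or more, as did 13034 rows in all. The Cd74 KO group held 3 libraries (genotype label KO) and the Control group 3 libraries (genotype label Con, CD74+/+ in the design text). Both groups came from femur marrow of mice aged 8 weeks and were cultured in 30 ng/mL M-CSF, which drives macrophage growth, and both had received 100 ng/mL lipopolysaccharide (LPS) for 24 h, so no library shows the pathway without LPS. The shared protocol names wild-type mice for the marrow and both genotypes for the RNA, and groups were therefore set by each library's title and genotype label. All Cd74 KO libraries carry batch label 2 and all Control libraries batch label 1, and in every comparison here genotype and batch cannot be told apart.

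Cytokine receptors of this pathway have no enzyme of their own and carry JAKs on their cytoplasmic tails. When a cytokine brings the chains together, the JAKs phosphorylate each other and the receptor, STATs dock, become phosphorylated, pair and enter the nucleus, where their targets include the SOCS genes, whose products bind receptors or JAKs and damp the signal. In macrophages STAT3 carries the IL-10 and IL-6 signals, STAT5 the GM-CSF signal and STAT6 the IL-4 signal, and the phosphorylation that switches them on is not read by RNA levels.

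The promoters of Cish and Socs3 are shown because they hold the letters TTCNNNGAA, the core that STAT dimers bind, and that of Jak2 because its level differed most among the called members. The windows are RefSeq promoters of build GRCm38.p6, which held all 10 genes, and run from 250 bases before to 50 bases after the annotated start, 5′ to 3′ on the gene's strand. Cish lies at chr9:107296409-107296708 on the + strand, Socs3 at chr11:117969317-117969616 on the - strand, and Jak2 at chr19:29251553-29251852 on the + strand. Capitals mark matches.
Cish: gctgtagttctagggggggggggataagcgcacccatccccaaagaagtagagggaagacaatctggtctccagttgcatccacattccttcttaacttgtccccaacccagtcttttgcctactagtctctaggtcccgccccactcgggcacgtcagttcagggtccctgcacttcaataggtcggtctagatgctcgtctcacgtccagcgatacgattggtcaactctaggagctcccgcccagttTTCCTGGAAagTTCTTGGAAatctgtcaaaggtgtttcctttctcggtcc
Socs3: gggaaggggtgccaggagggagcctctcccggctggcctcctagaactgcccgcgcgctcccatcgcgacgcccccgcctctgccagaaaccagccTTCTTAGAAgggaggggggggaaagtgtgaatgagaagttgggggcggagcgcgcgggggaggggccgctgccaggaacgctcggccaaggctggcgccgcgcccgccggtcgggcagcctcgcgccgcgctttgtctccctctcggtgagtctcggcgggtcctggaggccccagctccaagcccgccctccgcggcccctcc
Jak2: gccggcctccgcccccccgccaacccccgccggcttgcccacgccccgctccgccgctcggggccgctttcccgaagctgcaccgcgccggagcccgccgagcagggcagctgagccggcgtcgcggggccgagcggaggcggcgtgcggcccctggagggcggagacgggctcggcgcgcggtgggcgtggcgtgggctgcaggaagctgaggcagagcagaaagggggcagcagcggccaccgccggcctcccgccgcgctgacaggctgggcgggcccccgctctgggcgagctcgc
Counted from the first base of the window, Cish had TTCCTGGAA at bases 251 to 259 and TTCTTGGAA at bases 262 to 270, and Socs3 had TTCTTAGAA at bases 97 to 105. Both Cish matches lie beyond the 250 bases before the annotated start, and the Socs3 match lies within those bases. The letters TTCNNNGAA read the same on both strands. They occurred in 8.47% of 27025 promoter windows of 300 bases, 1 per gene symbol, and 0.463% held at least 2 copies, as Cish does. TTCNNNNGAA, the wider spacing preferred by STAT6, was in 6.99% of the windows and in 0 of the 10 members. The other 8 members held neither motif in these windows.

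The libraries held 51726646 to 59236599 reads recovered from the table in the Cd74 KO group and 36445462 to 52517056 in the Control group. Cd74 stood at 65.3, 64.6 and 63.1 TPM in Cd74 KO replicates 1 to 3, against 632, 593 and 594 TPM in Control replicates 1 to 3, but the knockout values of that row were not whole numbers of reads, so its size is in doubt. The log2 ratio of Cd74 KO to Control means was -3.24 for the Cd74 row. Its neighbours in the deposited table (10 rows on each side) had a median of -1.21. For Jak2 the row stood at -0.593 and its neighbours at -0.592. Why the Cd74 row stands apart from its neighbours was not tested. All 10 member rows were whole reads in all 6 libraries (tolerance 0.02 read). Correlations of log2(TPM + 1) across tested genes were 0.989 to 0.9937 within groups and 0.9668 to 0.987 between groups. Control replicate 1 had the fewest reads and carried liver transcripts (genes chosen after their values were seen): Alb was at 22.4 TPM there, 0 and 0.819 TPM in Control replicates 2 and 3, and 0.0953 to 0.871 TPM in the Cd74 KO libraries. Of 13 macrophage markers 10 had a row, with Cd68 at 1886 to 1927 TPM in the Cd74 KO libraries and 1741 to 1876 TPM in the Control libraries, while Cd163, Mertk and C1qa had none. The summed macrophage markers stood at 14220 to 15477 TPM in the Cd74 KO libraries and 10846 to 11372 TPM in the Control libraries. Lyz2, the lysozyme gene, was the largest part of that sum and made up most of its difference. It stood at 8658 ± 778 TPM in the Cd74 KO libraries and 5373 ± 355 TPM in the Control libraries (SD, n = 3 each). Of 9 macrophage markers tested 4 were called higher (Lyz2, Csf1r, Itgam and Spi1) and 1 lower. The lower one was Adgre1, which encodes F4/80, at 332 ± 34.0 TPM in the Cd74 KO libraries and 489 ± 4.44 TPM in the Control libraries (limma adjusted p = 0.00435). Neutrophil markers (2 of 8 with a row) summed to 16.3 to 22.6 TPM in the Cd74 KO libraries and 4.55 to 6.60 TPM in the Control libraries. S100a8 made up most of that sum, at 19.0 ± 3.34 TPM in the Cd74 KO libraries and 5.01 ± 0.762 TPM in the Control libraries (SD, n = 3 each). Camp, the other gene with a row, averaged 0.613 TPM in the Cd74 KO libraries and 0.863 TPM in the Control libraries, with overlapping groups. Mast cell and basophil markers (1 of 7, Hdc) stood at 4.37 to 9.03 TPM in the Cd74 KO libraries and 21.9 to 31.2 TPM in the Control libraries. B cell markers (3 of 6) summed to 12.0 to 12.7 TPM in the Cd74 KO libraries and 8.14 to 10.3 TPM in the Control libraries. Ighm made up most of that sum, while Cd79a and Pax5 were under 1 TPM in every library. The T and NK cell marker with a row (1 of 8, Lck) stood at 10.8 to 11.3 TPM in the Cd74 KO libraries and 12.6 to 13.9 TPM in the Control libraries. Dendritic cell markers (4 of 7) and stromal markers (4 of 7) summed to at most 8.26 and 1.45 TPM in any library. Cd3e, Kit and Ly6g had no row, and the part of these markers in the results below was not tested. All rows summed to 991721 to 993362 TPM in the Cd74 KO libraries and 998350 to 998572 TPM in the Control libraries. Both fall short of the total that TPM has by definition, the Cd74 KO libraries more so. A gene without a row is therefore not shown to be absent from the cells.

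In the Cd74 KO libraries Jak2, Tyk2 and Stat5a fell, and the other 7 genes did not pass the test. In bulk RNA, fewer cells of a type and less RNA per cell cannot be told apart. Jak2 was 33.7% lower, Stat5a 31.2% lower and Tyk2 22.9% lower by group means. Among all tested rows 10.1% were called lower, 18.5% higher and 28.5% in either direction, so the 3 of 10 members called are near the background for either direction and above it for lower calls, with no test of that excess. The members were chosen with earlier results of these data known. Of all calls, 64.7% were higher without rescaling and 50.8% with median-of-ratios scaling, and the 3 member calls held in both. The median log2 difference of the 10 genes was -0.02, beside 0.04 over all tested rows. Calls rest on limma-trend on log2(TPM + 1) with Benjamini-Hochberg adjustment over all 13034 rows and a threshold of 0.05. Whether replicates came from separate mice or cultures is not in the labels, and the p-values measure the spread between these libraries, which may be technical.

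**Figure D1:**
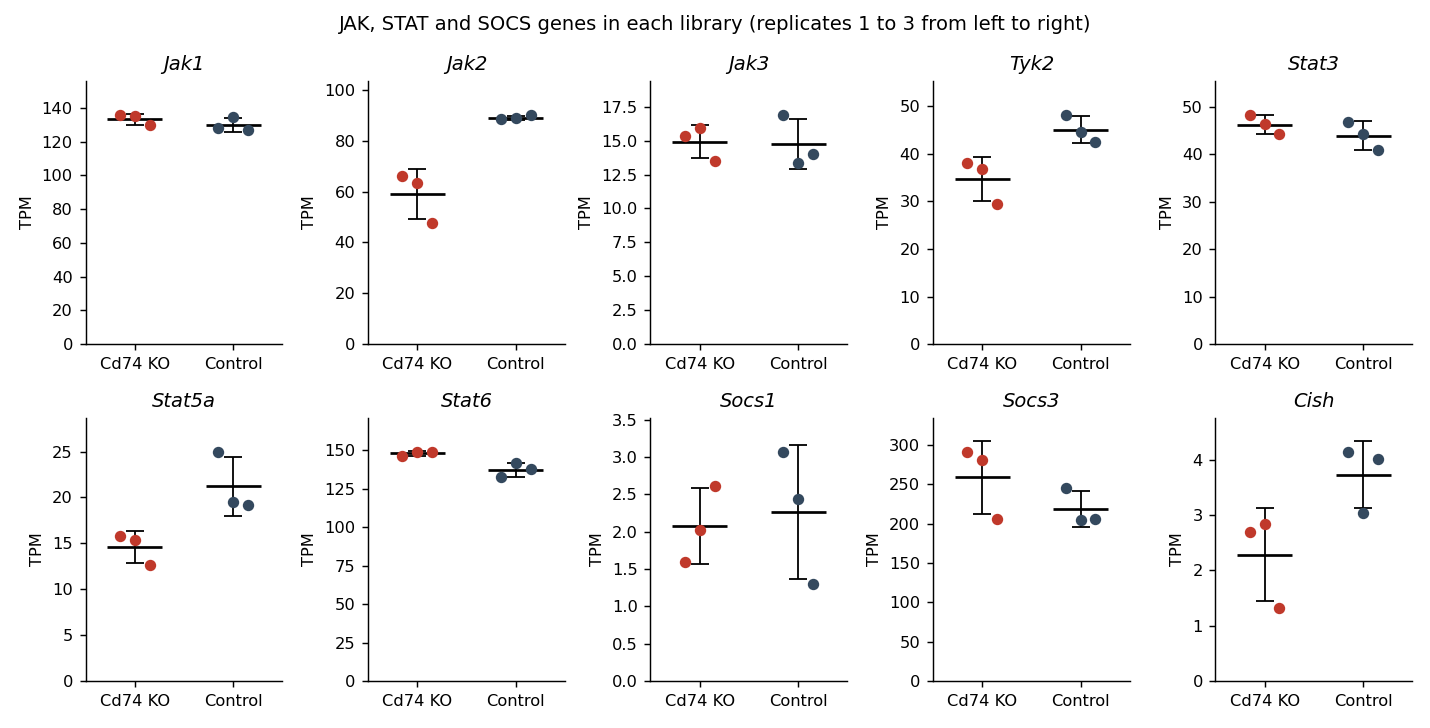
TPM (vertical axes, each from 0) of the 10 genes in the 3 Cd74 KO libraries (red) and the 3 Control libraries (dark), with group mean and SD as black lines. Jak2, Tyk2, Stat5a and Cish lie lower in every Cd74 KO library than in any Control library, and Cd74 KO replicate 3 is the lowest of the 6 libraries for all 4.

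The order of the members by level was alike at the top and bottom in both groups. TPM is scaled per length, so levels of different genes can be set side by side. In the Cd74 KO libraries Socs3 led with a mean of 259 TPM, followed by Stat6 (148), Jak1 (133), Jak2 (59.1), Stat3 (46.2), Tyk2 (34.7), Jak3 (14.9), Stat5a (14.6), Cish (2.28) and Socs1 (2.08). There the ranges overlapped between Jak2 and Stat3, between Jak3 and Stat5a, and between Cish and Socs1. In the Control libraries the order was Socs3 (219 TPM), Stat6 (137), Jak1 (130), Jak2 (89.1), Tyk2 (45.1), Stat3 (43.9), Stat5a (21.2), Jak3 (14.7), Cish (3.73) and Socs1 (2.27). The ranges overlapped there between Stat6 and Jak1, between Tyk2 and Stat3, and between Cish and Socs1.

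Among the kinases, Jak2 serves the receptors for GM-CSF, interferon-gamma and the IL-12 family. It stood at 66.1, 63.2 and 47.8 TPM in Cd74 KO replicates 1 to 3, against 88.5, 88.8 and 89.9 TPM in Control replicates 1 to 3. The groups did not overlap, with the Control libraries close together and Cd74 KO replicate 3 well below its group. The difference was -0.60 on the log2(TPM + 1) scale (SE 0.11, limma adjusted p = 0.0108, n = 3 each), resting on 4044 to 7168 reads per library. This call held in all 12 alternatives (adjusted p 0.00179 to 0.0413), and the difference was -0.46 without Cd74 KO replicate 3.

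Tyk2, the kinase of the type I interferon, IL-10 and IL-12 receptors, moved less. It stood at 38.0, 36.8 and 29.4 TPM in Cd74 KO replicates 1 to 3, against 48.1, 44.7 and 42.5 TPM in Control replicates 1 to 3. Every Cd74 KO library lay below every Control library. The difference was -0.37 (SE 0.10, limma adjusted p = 0.0323), and its call ended without Control replicate 1, 2 or 3 (adjusted p = 0.102, 0.0797 and 0.0626) or without Cd74 KO replicate 2 (0.0513).

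Jak1 and Jak3 were not called. Jak1, the partner kinase in most of these receptors, stood at 136, 135 and 130 TPM in Cd74 KO replicates 1 to 3, against 128, 134 and 127 TPM in Control replicates 1 to 3. Its groups overlapped, and its difference of 0.04 had a 95% interval of -0.07 to 0.15 (limma adjusted p = 0.550). Jak3, which pairs with the common gamma chain, stood at 15.4, 15.9 and 13.5 TPM in Cd74 KO replicates 1 to 3, against 16.9, 13.4 and 14.0 TPM in Control replicates 1 to 3. Its difference of 0.02 had an interval of -0.22 to 0.26 (limma adjusted p = 0.896), wide enough to hold changes of either sign.

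**Figure D2:**
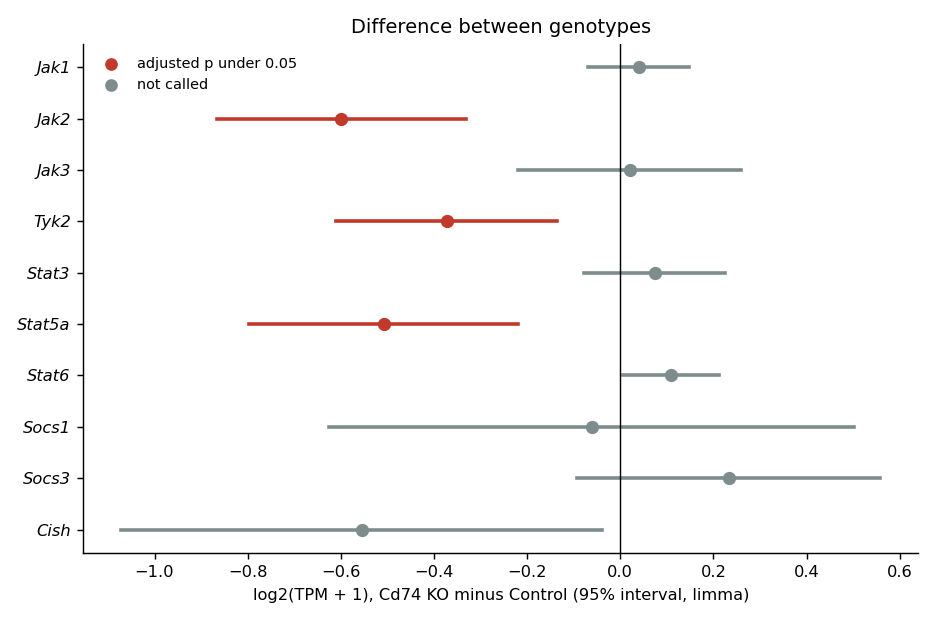
Difference in log2(TPM + 1) between Cd74 KO and Control (horizontal axis, dots) with its 95% interval from limma (bars) for the 10 genes, red where the adjusted p was under 0.05. Jak2, Tyk2 and Stat5a are red and lie below 0, and the widest intervals belong to Socs1 and Cish, the 2 genes with the lowest levels.

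The make-up of the JAK transcripts was set out as shares of the 4 kinases. The summed level of the 4 kinases was 255, 251 and 220 TPM in Cd74 KO replicates 1 to 3, against 281, 281 and 273 TPM in Control replicates 1 to 3. Jak1 took 55.2% ± 3.10 of that sum in the Cd74 KO libraries and 46.6% ± 1.18 in the Control libraries (SD, n = 3 each). Jak2 took 24.3% ± 2.26 in the Cd74 KO libraries and 32.0% ± 0.807 in the Control libraries. Tyk2 took 14.3% ± 0.829 in the Cd74 KO libraries and 16.2% ± 0.819 in the Control libraries, and Jak3 took 6.17% ± 0.161 in the Cd74 KO libraries and 5.29% ± 0.638 in the Control libraries. The groups did not overlap for any of the 4 shares, and each had p = 0.1 in an exact two-sided permutation test (0.143 adjusted over the 10 shares computed), the smallest p that 3 against 3 libraries allow, so a share cannot pass 0.05 here. The shares of a library add up to the whole, so the higher Jak1 and Jak3 shares restate the lower Jak2 and Tyk2 levels and are no separate result: the levels of Jak1 and Jak3 overlapped between groups.

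**Figure D3:**
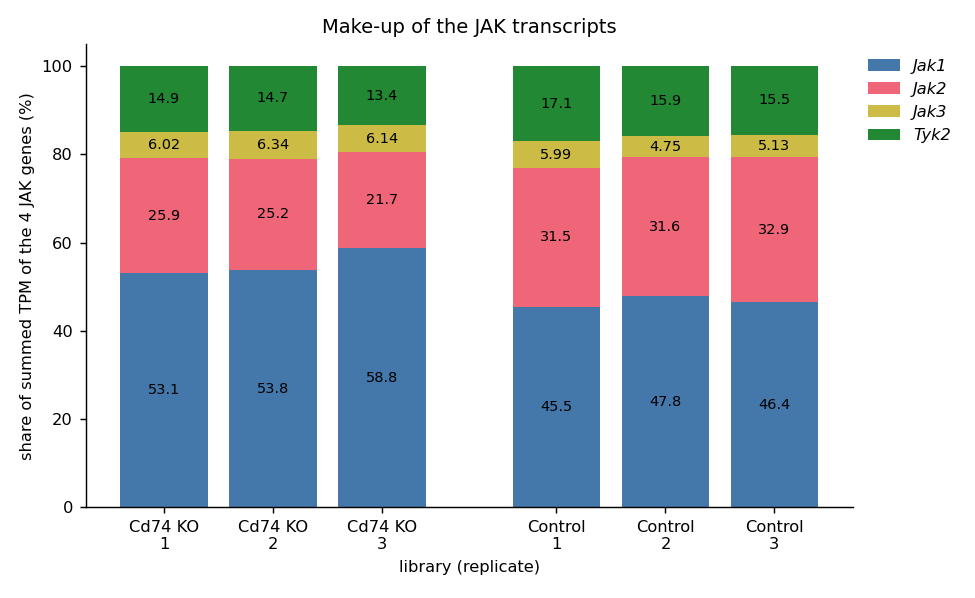
Share of the summed TPM of the 4 JAK genes (vertical axis, %) taken by each gene in each library, Cd74 KO replicates 1 to 3 on the left and Control replicates 1 to 3 on the right. The Jak1 share is 53.1% to 58.8% in the Cd74 KO libraries and 45.5% to 47.8% in the Control libraries, and the Jak2 share is 21.7% to 25.9% in the Cd74 KO libraries and 31.5% to 32.9% in the Control libraries.

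Of the 3 STAT members Stat5a was called and Stat3 and Stat6 were not. Stat5a, a factor for GM-CSF and other growth signals, stood at 15.8, 15.4 and 12.6 TPM in Cd74 KO replicates 1 to 3, against 25.0, 19.5 and 19.2 TPM in Control replicates 1 to 3. The groups did not overlap, and Control replicate 1 lay above the other Control libraries. The difference was -0.51 (SE 0.12, limma adjusted p = 0.0224), and it was -0.39 with the call lost without Control replicate 1 (adjusted p = 0.0555). Stat5b, its close paralogue and no member, stood at 25.8, 23.4 and 21.7 TPM in Cd74 KO replicates 1 to 3, against 30.3, 26.4 and 25.8 TPM in Control replicates 1 to 3. Its difference was -0.21 (SE 0.09, limma adjusted p = 0.104), and Stat5a and Stat5b are alike enough that reads could have been divided between them, which leaves both levels uncertain.

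Stat3 stood at 48.1, 46.3 and 44.2 TPM in Cd74 KO replicates 1 to 3, against 46.7, 44.2 and 40.8 TPM in Control replicates 1 to 3. The groups overlapped, and the difference of 0.07 had an interval of -0.08 to 0.23 (limma adjusted p = 0.423). Stat6, the IL-4 factor, stood at 146, 149 and 149 TPM in Cd74 KO replicates 1 to 3, against 133, 142 and 138 TPM in Control replicates 1 to 3. Its groups did not overlap, with the Cd74 KO libraries higher by 7.87% in mean, but the difference of 0.11 (interval 0.01 to 0.21) was not called after adjustment (limma adjusted p = 0.105, unadjusted p = 0.0422). Among all tested rows 30.2% had groups apart with the Cd74 KO libraries higher and 19.8% with them lower (50% in all), beside 1 and 4 of the 10 members.

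None of the 3 inhibitor genes was called. Cish, whose protein blocks STAT5 docking at receptors, stood at 2.69, 2.84 and 1.32 TPM in Cd74 KO replicates 1 to 3, against 4.14, 3.04 and 4.01 TPM in Control replicates 1 to 3. The groups did not overlap and Cd74 KO replicate 3 was lowest. These levels rested on 309, 286 and 142 reads in the Cd74 KO libraries and 301, 313 and 403 reads in the Control libraries. The difference was -0.56 (interval -1.07 to -0.04, limma adjusted p = 0.0976), a scale on which low genes are compressed, and it was -0.79 with limma-voom on recovered reads (adjusted p = 0.0519). It was not called in any of the 12 alternatives, and was -0.32 without Cd74 KO replicate 3.

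Socs3, the inhibitor of IL-6 receptor signalling, stood at 291, 281 and 206 TPM in Cd74 KO replicates 1 to 3, against 246, 204 and 206 TPM in Control replicates 1 to 3. Cd74 KO replicate 3 lay among the Control libraries, and the other 2 lay above all of them. The difference was 0.23 (interval -0.09 to 0.56, limma adjusted p = 0.243), and without Cd74 KO replicate 3 it was 0.39 and called higher (adjusted p = 0.0193). Socs1, which inhibits JAKs directly, stood at 1.59, 2.02 and 2.62 TPM in Cd74 KO replicates 1 to 3, against 3.07, 2.44 and 1.30 TPM in Control replicates 1 to 3. Its 59 to 128 reads per library gave overlapping groups and a difference of -0.06 (interval -0.62 to 0.50, limma adjusted p = 0.867).

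Socs3 made up nearly all of the summed level of the 3 inhibitors, at 98.3% ± 0.213 in the Cd74 KO libraries and 97.3% ± 0.173 in the Control libraries (SD, n = 3 each). Cish took 0.844% ± 0.192 in the Cd74 KO libraries and 1.66% ± 0.227 in the Control libraries. Both shares kept the groups apart (exact two-sided permutation p = 0.1, the smallest possible, and 0.143 adjusted over 10 shares). These shares, too, depend on each other. The 2 genes whose windows hold TTCNNNGAA had differences of opposite sign, -0.56 for Cish and 0.23 for Socs3, neither of them called.

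**Figure D4:**
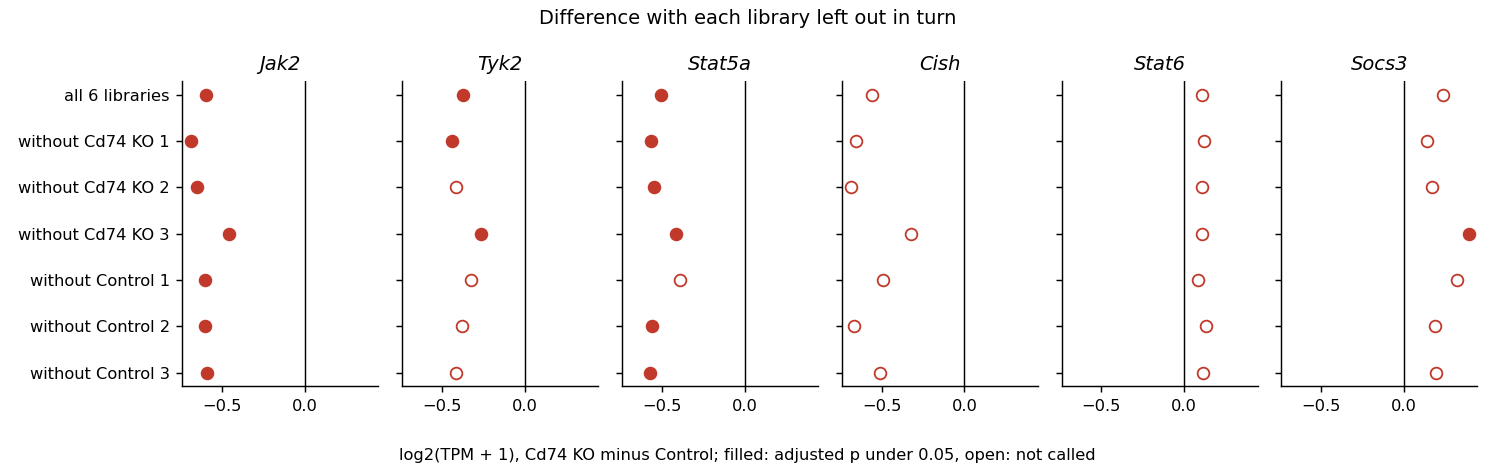
Difference in log2(TPM + 1) between Cd74 KO and Control (horizontal axes) for 6 of the genes, with all 6 libraries and with each library left out in turn (rows), filled where the adjusted p was under 0.05. Jak2 is filled in every row, Tyk2 is open in 4 of them, and Socs3 is filled only without Cd74 KO replicate 3.

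Cd74 KO replicate 3 was the lowest of the 6 libraries for 4 of the 10 members, Jak2, Tyk2, Stat5a and Cish, beside 30.4% of all tested rows. Without it the 3 calls stayed and Socs3 was added, beside 8.87% of all tested rows called lower and 16.1% higher. Without Control replicate 1, the library with liver transcripts, Jak2 was the 1 member called, beside 5.53% of rows lower. The count was 2 members lower without Control replicate 2, Control replicate 3 or Cd74 KO replicate 2 (5.92%, 5.13% and 6.66% of rows lower) and 3 without Cd74 KO replicate 1 (9.35%). It was also 3 with a pseudocount of 0.1 (9.84% of rows lower), no filter (6.73%), median-of-ratios scaling (13.5%), limma-voom (13.7%), removal of the 28 rows that are not whole reads (9.88%) and the replicate block (10.6%).

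The 3 tested rows most like Jak2 over the 6 libraries, by Pearson r of log2(TPM + 1), were C130026I21Rik (r = 0.998), the cytokine gene Il6 (0.998) and Dennd4a (0.998). Il6 averaged 43.2 ± 18.02 TPM in the Cd74 KO libraries and 156 ± 5.55 TPM in the Control libraries (SD, n = 3 each), and Dennd4a averaged 24.9 ± 4.11 TPM in the Cd74 KO libraries and 37.0 ± 0.666 TPM in the Control libraries. The 6 libraries fall into 2 groups, so this likeness is a description with no p.

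Around the members, 8 lists of pathway genes held 121 distinct genes. The table had rows for 104 of them and 89 could be tested, with 8 higher and 27 lower in the Cd74 KO libraries. Over all tested rows 18.5% were called higher and 10.1% lower, with a median difference of 0.04, and the counts and medians of the lists below, which were not tested against other genes, are to be read beside these. Of the 89 genes, the share called higher lay below that background and the share called lower above it. The lists were chosen with earlier results of these data known, so this excess of lower calls is no independent result. Cytokines that signal through JAKs gave the lowest list median. Of 10 tested, 0 rose, 7 fell and 3 were not called (median difference -0.98). Il6 fell by 1.93 and Csf2, which encodes GM-CSF, fell by 1.79 on the log2(TPM + 1) scale, and both kept their calls in all 12 alternatives. Csf2 stood at 20.7, 19.8 and 8.85 TPM in Cd74 KO replicates 1 to 3, against 50.5, 58.0 and 59.4 TPM in Control replicates 1 to 3. Csf3, the G-CSF gene and the highest of the list, averaged 1471 ± 234 TPM in the Cd74 KO libraries and 1998 ± 232 TPM in the Control libraries (SD, n = 3 each), a call lost without any 1 of Control replicates 1, 2 and 3 or Cd74 KO replicates 2 and 3, and with no filter. With 1 library left out in turn 2 to 8 of the list were lower, with 2 without Control replicate 1 and 4 without Control replicate 2 or 3.

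Of 20 tested receptor chains, 1 rose, 4 fell and 15 were not called (median -0.10). The share called in either direction was near the 28.5% of all tested rows. By direction more chains fell than rose, while 18.5% of all tested rows were higher and 10.1% lower. Il6ra, the ligand-binding chain of the IL-6 receptor, rose and stood at 12.9, 13.0 and 15.6 TPM in Cd74 KO replicates 1 to 3, against 8.19, 9.68 and 9.18 TPM in Control replicates 1 to 3 (difference 0.56, SE 0.10, limma adjusted p = 0.00867). Csf3r, the G-CSF receptor, fell to 7.39 ± 0.605 TPM in the Cd74 KO libraries, against 11.9 ± 1.43 TPM in the Control libraries (SD, n = 3 each). Il15ra fell by 0.49 (limma adjusted p = 0.0485), a call lost when any 1 library was left out and with a pseudocount of 0.1 or no filter. Il13ra1, the highest of the list, differed by -0.06 and was not called, at 101 ± 22.6 TPM in the Cd74 KO libraries and 103 ± 4.31 TPM in the Control libraries. Without Cd74 KO replicate 3, 4 chains were higher and 2 lower, and 2 were lower without Control replicate 1, 2 or 3 or Cd74 KO replicate 2.

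**Figure D5:**
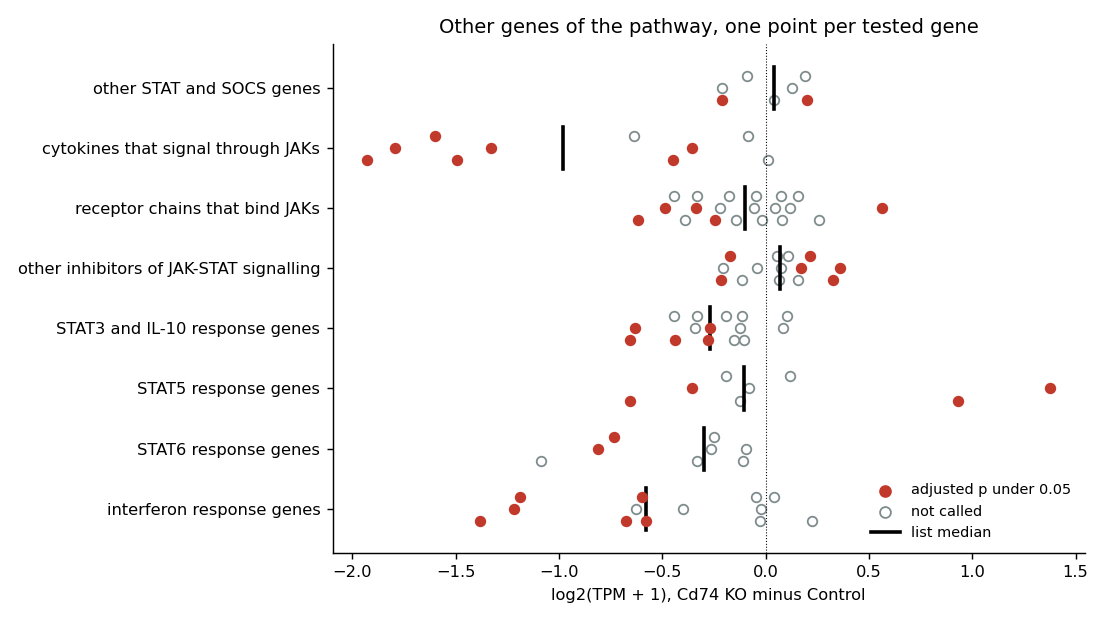
Difference in log2(TPM + 1) between Cd74 KO and Control (horizontal axis) for each tested gene of the 8 lists around the members, red where the adjusted p was under 0.05, with the list median as a black bar. The cytokine list has the lowest median (-0.98), and the inhibitor list has 4 red points above 0 and 2 below.

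Among the other SOCS and STAT genes, Socs4 fell by 0.21 (limma adjusted p = 0.0310) and lost its call without Control replicate 1, 2 or 3 or Cd74 KO replicate 2. Stat2, the highest of this list, averaged 59.5 ± 10.96 TPM in the Cd74 KO libraries and 62.8 ± 4.94 TPM in the Control libraries and was not called.

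Among 14 tested inhibitors outside the SOCS family 4 rose, 2 fell and 8 were not called (median 0.07), beside 18.5% higher and 10.1% lower over all tested rows. Usp18, which blocks the interferon receptor, averaged 183 ± 7.75 TPM in the Cd74 KO libraries and 146 ± 3.48 TPM in the Control libraries (SD, n = 3 each), a difference of 0.33 called in all 12 alternatives. Sh2b3, the adaptor LNK, rose by 0.36, a call lost without Control replicate 1 or 3. Pias4 fell by 0.22 and Ptprc, the phosphatase CD45, fell by 0.17. Pias4 lost its call without Control replicate 1, 2 or 3 or Cd74 KO replicate 2, and Ptprc in 8 of 12 alternatives, including each left-out library, no filter and the replicate block. Ptpn6, the phosphatase SHP-1 and the highest of the list, averaged 329 ± 16.7 TPM in the Cd74 KO libraries and 338 ± 2.11 TPM in the Control libraries and was not called. With 1 library left out 1 to 3 of the list were higher and 0 to 1 lower, with 1 higher without Control replicate 1 or 3 and 2 without Cd74 KO replicate 2.

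Response genes were listed by the STAT or cytokine they are known for. Of 15 tested STAT3 and IL-10 response genes 0 rose and 5 fell (median -0.27). Pim1, a survival kinase, stood at 99.1, 94.5 and 71.1 TPM in Cd74 KO replicates 1 to 3, against 149, 135 and 131 TPM in Control replicates 1 to 3 (difference -0.66, SE 0.12, limma adjusted p = 0.0103). Nfil3, a transcription factor induced by IL-10, fell by 0.63, and both kept their calls in all 12 alternatives. Il1rn, the IL-1 receptor antagonist and the highest of the list, averaged 1578 ± 125 TPM in the Cd74 KO libraries and 1754 ± 19.3 TPM in the Control libraries and was called with limma-voom alone (adjusted p = 0.0418).

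Of 8 tested STAT5 response genes 2 rose, 2 fell and 4 were not called (median -0.10), and Pim1 is also in this list. Id1, an inhibitor of helix-loop-helix factors, averaged 23.6 ± 1.18 TPM in the Cd74 KO libraries and 8.55 ± 1.69 TPM in the Control libraries, and Ccnd1, the cyclin D1 gene, averaged 198 ± 22.1 TPM in the Cd74 KO libraries and 103 ± 6.91 TPM in the Control libraries (SD, n = 3 each). Osm, the oncostatin M gene, fell by 0.36, a call lost without Control replicate 1, 2 or 3 and with no filter, so that 1 of the list was lower when any 1 Control library was left out. Myc, the highest of the list, differed by -0.13 and was not called.

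Of 8 tested STAT6 response genes 0 rose and 2 fell (median -0.30), and 4 of the 18 listed had no row. Ccl22, a chemokine gene and the highest of the list, fell by 0.81 and Klf4, a transcription factor gene, fell by 0.73. Ccl22 lost its call without Control replicate 1 or 3 or Cd74 KO replicate 2 or 3, and Klf4 without Control replicate 1, 2 or 3, so that 0 of the list were called without Control replicate 1 or 3. Of 13 tested interferon response genes 0 rose, 6 fell and 7 were not called (median -0.58). Rsad2, which encodes viperin, averaged 246 ± 89.4 TPM in the Cd74 KO libraries and 615 ± 99.5 TPM in the Control libraries, and Cxcl10, a chemokine gene, averaged 45.3 ± 8.84 TPM in the Cd74 KO libraries and 107 ± 23.6 TPM in the Control libraries. Isg15, a ubiquitin-like modifier and the highest of the list, averaged 822 ± 131 TPM in the Cd74 KO libraries and 1239 ± 114 TPM in the Control libraries (SD, n = 3 each). These 3 kept their calls in all 12 alternatives, and 4 to 6 of the list were lower with 1 library left out.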

How the data were processed

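RNA-seq of total RNA was available for 6 libraries, 3 Cd74 KO and 3 Control. The deposited table holds TPM, an abundance scaled for gene length and library size by the authors, a unit taken from the column sums and from the read steps. The build GRCm39 and the tool DESeq2 appear, per the submitters' processing notes, with no stated role. Aligner, counter and annotation are not given in the sources used here. Reads were recovered by multiplying TPM by GENCODE M21 union exon lengths (used for lengths alone) and dividing by the worth of 1 read in each library. At the annotated length 16508 rows (95.9%) were whole within 0.02 read, a search over other lengths (0.003 read) gave 681 more, and 28 rows were whole at none. 1 read in a 1 kb gene was worth 0.0558 to 0.0883 TPM.

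The comparison used limma 3.58.1 in R 4.3.3 (trend and robust eBayes) on log2(TPM + 1), two-sided, for rows whose mean reached 1 TPM, and p-values were adjusted by Benjamini-Hochberg across those rows. Differences are on that scale, which understates low genes. The fit was also run on simulated counts with the same spread setting for every gene and no batch or outlying library. That run therefore does not show how calls hold in these libraries. Shares were compared with exact permutation tests (scipy 1.17.1). Alternatives were a pseudocount of 0.1, no filter, median-of-ratios scaling, limma-voom on recovered reads, removal of the 28 rows, a replicate block, and each library left out in turn. Members and lists were chosen with earlier results of these data known. Beside the members, the text names from each list the 2 largest called rises and falls and the gene with the highest mean TPM. It also names the 3 rows most like Jak2, the member with the largest difference on the log2(TPM + 1) scale. By group means Cish differed more (38.9% lower, against 33.7% for Jak2) but was not called. Some genes of these lists are not reported here. Stat5a and Stat5b reads may be shared. RefSeq promoters (GRCm38.p6) were matched by symbol.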

Additional observations from a re-analysis of the deposited data

How the results depend on the processing

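The 3 member calls (0 higher, 3 lower) held under a pseudocount of 0.1, no filter, median-of-ratios scaling, limma-voom, removal of the 28 rows and the replicate block. With 1 library left out in turn, 1 to 3 members were lower and 0 to 1 higher, list genes numbered 4 to 10 higher and 13 to 27 lower, and all rows 1313 to 2096 higher and 669 to 1219 lower. Directions turned for members that were not called: Jak1 was at -0.0035 and Jak3 at -0.0203 after median-of-ratios scaling. Jak3 was also at -0.0429 without Control replicate 2, -0.01 without Control replicate 3, -0.00027 without Cd74 KO replicate 1 and -0.0239 without Cd74 KO replicate 2 (range with 1 library left out -0.0429 to 0.115). Socs1 was at 0.12 without Control replicate 1 and 0.05 without Cd74 KO replicate 1 (range -0.296 to 0.116). Tyk2 lost its call at -0.33 without Control replicate 1, -0.38 without Control replicate 2, -0.41 without Control replicate 3 and -0.42 without Cd74 KO replicate 2, and Stat5a at -0.39 without Control replicate 1. The cause was not tested, and each such fit had 1 library fewer. Median-of-ratios scaling moved the median of all tested rows by -0.04 and gave 1814 higher and 1756 lower rows, against 2406 and 1313 as deposited. Removal of the 28 rows gave 2405 higher and 1285 lower rows.

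Deviations from group means correlated at 0.134, -0.0766 and 0.0315 between same-numbered libraries for numbers 1 to 3, and at -0.168 to 0.168 between differently numbered libraries. These values show no pairing by number, but 3 libraries per group are too few to exclude one. With the replicate block 0 members were higher and 3 lower, and 2331 rows were higher and 1380 lower. The members with the fewest reads were Socs1 (59 to 128 reads per library) and Cish (142 to 403), and what depth adds to their spread was not tested.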
